A study of Mus musculus with 8 samples.

Results

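Integrins are the adhesion receptors of the cell surface, each built of 1 alpha and 1 beta subunit, and the RNA of 10 mouse integrin subunit genes was followed here in spleen neutrophils: Itgam, Itgal, Itgax, Itga4 and Itga6, which encode alpha subunits, and Itgb2, Itgb2l, Itgb1, Itgb3 and Itgb7, which encode beta subunits. The genes were chosen by symbol, through the GENCODE M21 entry of their Ensembl identifier, and are 10 of the 55414 genes listed in the count data. All 10 passed the filter on low counts. Neutrophils came from 4 WT mice and 4 Cxcr2-/- mice, which lack the chemokine receptor Cxcr2 in every cell of the body and not in neutrophils alone. All 8 mice were on the FVB background, were 10 weeks old and were kept under SOPF housing, and each gave 1 library. The cells were enriched with a CD11b positive selection and sorted as CD45+ CD11b+ Ly6G+ F4/80- cells, a gate that leaves out cells with the macrophage protein F4/80. CD11b is the protein of Itgam, so the sort itself chose cells with the product of 1 of the 10 genes.

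The alpha subunit of an integrin largely sets which ligand is bound, and a subunit reaches the cell surface only with a partner. In neutrophils the beta2 subunit pairs with the products of Itgal to form LFA-1, of Itgam to form Mac-1 and of Itgax to form p150,95, receptors for ICAM molecules and for complement C3 fragments that serve firm adhesion to the vessel wall, phagocytosis and crawling. The product of Itga4 pairs with beta1 to form VLA-4 and with beta7 to form a receptor for VCAM-1 and MAdCAM-1, and integrins of both kinds are held inactive until talin and kindlin bind the beta tail.

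Each library held between 34220182 and 46233555 counts on genes. Reads outside genes made up 26.7% to 31.9% of the aligned reads in the Cxcr2-/- libraries, and 31.4% in WT replicate 1 against 40.0% to 41.5% in the other WT libraries. Of the gene counts, 1.36% to 2.20% in Cxcr2-/- libraries and 0.943% to 1.30% in WT libraries fell on identifiers that M21 lacks. The part of these differences in the results below was not tested. The targeted gene Cxcr2 fell from 1956 ± 221 CPM in the WT to 17.1 ± 3.46 CPM in the knockout (SD, 4 mice each), where CPM are counts scaled to the TMM-normalized library size. All 10 genes of a neutrophil marker list, Ly6g, S100a8 and Csf3r among them, were above 1 CPM in every library. They also moved with genotype, 7 higher and 3 (Csf3r, Ptprc and Cxcr2 itself) lower in Cxcr2-/- mice with a median log2 fold change of 1.02, and their sum was from 40026 to 55713 CPM in WT and from 79626 to 99096 CPM in Cxcr2-/- mice. Their part in the changes of the integrin genes was not tested. Between WT and Cxcr2-/- neutrophils, 44.7% of the 16778 genes tested passed an adjusted p of 0.05 (23.7% higher and 21.0% lower in Cxcr2-/-), with the quasi-likelihood test of edgeR and Benjamini-Hochberg adjusted p-values, from which every adjusted p of a single gene below comes. The sum over the whole cell population was measured, so that fewer cells of a stage or type and less RNA per cell cannot be told apart.

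Of the 10 integrin subunit genes, 5 passed the test, 4 of them lower (Itgal, Itgax, Itga4 and Itgb7) and 1 higher (Itgb2l) in Cxcr2-/- spleen neutrophils. All 5 changed at least 1.5-fold, against 31.3% of all genes tested, and in the same 5 the WT and Cxcr2-/- mice did not overlap in CPM, against 41.6% of all genes tested. The share of the subunits that passed in either direction was close to the 44.7% among all genes. By direction, 40.0% of the 10 subunits were lower and 10.0% higher, against 21.0% and 23.7% of all genes tested. The median log2 fold change was -0.09 for the 10 subunits and 0.01 for all genes tested. Itgb2, Itgam, Itgb1, Itga6 and Itgb3 did not pass. The pattern differed along the pairs: the alpha partners Itgal and Itgax fell where their beta partner Itgb2 did not pass the test, and Itga4 fell where Itgb1 did not pass, but fell with Itgb7. Not every alpha partner fell: Itgam, which also pairs with Itgb2, and Itga6, which pairs with Itgb1, did not pass (log2 fold changes 0.18 and 0.14).

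**Figure D1:**
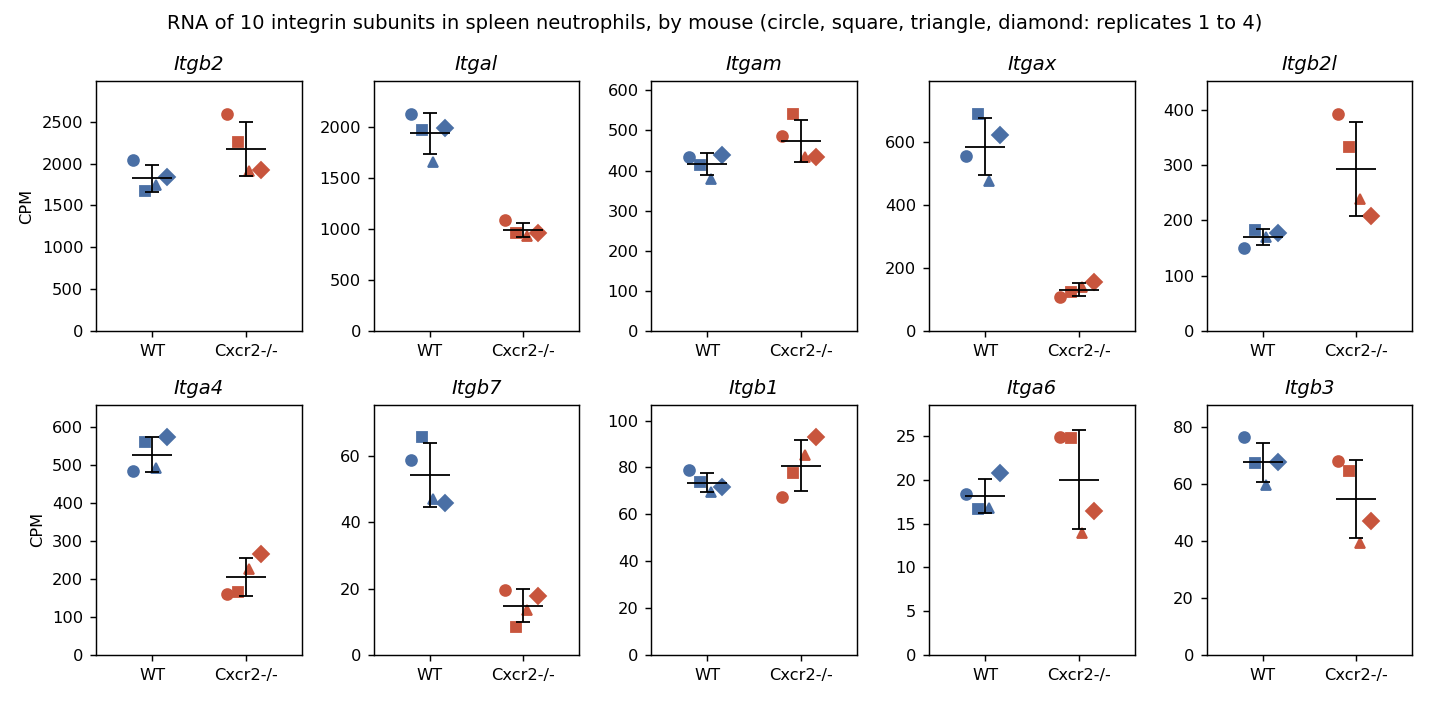
RNA level of each integrin subunit gene in CPM (linear axes from 0, scaled for each gene) in every mouse, with 1 point per library, WT and Cxcr2-/- side by side, a line at the mean of the 4 mice and error bars of 1 SD. Itgal, Itgax, Itga4 and Itgb7 lie lower in all Cxcr2-/- mice than in all WT mice, Itgb2l lies higher in all of them, and the points of the other 5 genes overlap.

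Levels of different subunits were compared per length, as CPM per kilobase of exon (RPKM, from the union of the M21 exons, which may differ from those the counting used). In WT neutrophils Itgb2 was highest at 598 ± 51.7 RPKM, followed by Itgal at 296 ± 30.2 RPKM, Itgax at 122 ± 19.1 RPKM and Itgam at 83.0 ± 5.52 RPKM (SD, n = 4). Then came Itgb2l at 39.3 ± 3.28 and Itga4 at 37.6 ± 3.31 RPKM, whose ranges overlapped, Itgb7 at 19.6 ± 3.46 and Itgb1 at 18.0 ± 0.986 RPKM, whose ranges overlapped too, Itgb3 at 11.5 ± 1.17 RPKM and Itga6 at 2.01 ± 0.215 RPKM. The RNA of the common beta2 subunit thus stood above that of each single alpha partner in WT mice.
In Cxcr2-/- neutrophils Itgb2 was again highest, at 711 ± 106 RPKM, and Itgal next, at 151 ± 10.6 RPKM, but Itgam at 94.3 ± 10.3 and Itgb2l at 67.8 ± 19.7 RPKM, with overlapping ranges, stood above Itgax at 27.5 ± 4.45 RPKM. Itgb1 was at 19.8 ± 2.65, Itga4 at 14.6 ± 3.61, Itgb3 at 9.27 ± 2.34 and Itgb7 at 5.34 ± 1.80 RPKM, and from Itgax down to Itgb7 each gene overlapped the next in the order. Itga6 was lowest, at 2.22 ± 0.625 RPKM, and did not overlap Itgb7. This order depends on the length used. Per length of the longest transcript in Cxcr2-/- mice, Itgb7 at 5.51 and Itga6 at 4.64 RPKM overlapped. By the same length Itgb2l, at 104 RPKM, stood above Itgam, at 101 RPKM, by mean. Itgax then did not overlap Itgb1, nor Itga4 Itgb3. Itgb7 moved from above Itgb3 in WT to below it by mean in Cxcr2-/- neutrophils, and Itga4 from above Itgb1 to below it.
The level of Itgam may be an undercount. In M21, Gm49368, a protein-coding gene model on the same strand, starts within Itgam and ends between Itgam and Itgax. It shares 3450 bases, or 68.7%, of the Itgam exons. By its default rule HTSeq counts a read pair that fits both models for neither. The rule the authors used is not given in the sources used here. With the 1574 exon bases that are not shared as the length, Itgam was at 265 ± 17.6 RPKM in WT, overlapping Itgal, and at 301 ± 32.8 RPKM in Cxcr2-/- neutrophils, above Itgal. The fold change of Itgam would then rest on the unshared bases in both groups.

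Itgb2 encodes the beta2 subunit (CD18), the partner of Itgal, Itgam, Itgax and Itgad. It is ENSMUSG00000000290 on chromosome 10 from 77530252 to 77565708 of GRCm38. The 4 WT mice were at 2038, 1678, 1739 and 1840 CPM and the 4 Cxcr2-/- mice at 2595, 2252, 1914 and 1921 CPM, in the order of their replicate numbers. The first 2 Cxcr2-/- mice were above every WT mouse, and the other 2 lay within the WT range. The log2 fold change of Itgb2 was 0.25 ± 0.13 (SE, adjusted p = 0.128), which did not pass.

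Itgal encodes the alpha subunit of LFA-1 (CD11a). It is ENSMUSG00000030830 on chromosome 7 from 127296260 to 127335138 on the plus strand. It was at 2135, 1976, 1665 and 1992 CPM in the WT mice. In the Cxcr2-/- mice it was at 1094, 966, 937 and 965 CPM. All Cxcr2-/- mice were below all WT mice and lay close to each other, with means of 1942 ± 198 CPM in WT and, after the fall, 991 ± 70.0 CPM (SD, 4 mice each). Relative to WT, Itgal changed by -0.97 ± 0.11 on the log2 scale (SE, adjusted p = 2.31e-05), or 1.96-fold lower in Cxcr2-/- neutrophils.

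Itgax encodes the alpha subunit of p150,95 (CD11c), a receptor for C3 fragments that is also a marker of dendritic cells. It is ENSMUSG00000030789 on chromosome 7 from 128129547 to 128150657 on the plus strand. The WT mice were at 555, 691, 477 and 623 CPM and the Cxcr2-/- mice at 107, 124, 141 and 157 CPM. This was the largest change among the 10 genes, with a log2 change of -2.15 ± 0.15 (SE, adjusted p = 3.88e-07), or 4.43-fold lower in Cxcr2-/- neutrophils. The summed level of 7 dendritic cell markers was 289, 652, 249.6 and 140.3 CPM in the WT and 164, 71.0, 186 and 219 CPM in the Cxcr2-/- mice, mostly Cd74 and H2-Ab1. This sum was below Itgax in all WT mice, only slightly so in replicate 2, and above it in 3 of the 4 Cxcr2-/- mice. Of the 6 markers tested, with a median log2 fold change of -1.07, 2, Clec9a (3.28 and 1.58 CPM) and Zbtb46 (6.51 and 3.08 CPM), were lower in Cxcr2-/- mice, Zbtb46 not without WT replicate 2 (adjusted p = 0.101) or Cxcr2-/- replicate 2 or 4 (adjusted p = 0.0645 and 0.0507), nor with the covariate described below (adjusted p = 0.194) or the replicate block (adjusted p = 0.0603). The sum was highest in WT replicate 2, which also had the highest Itgax. It overlapped between the groups, whereas Itgax did not, and without WT replicate 2 the log2 fold change of Itgax was -2.08 (adjusted p = 2.02e-06). The sum of 8 macrophage and monocyte markers, mostly Csf1r and Ly6c2, was higher in Cxcr2-/- mice, from 698 to 812 CPM in WT and from 836 to 935 CPM in Cxcr2-/- mice. The rise of the sum was that of Ly6c2 (log2 fold change 1.39), whereas the median log2 fold change of the list was -1.01, in the direction of Itgax. Csf1r (-0.93) and Adgre1 (-1.31), the gene of F4/80, by whose absence the cells were sorted, were lower, and Spic, C1qa, C1qb and Vcam1, at means under 10 CPM, did not pass. The part of such cells in the change of Itgax was not tested.

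Itgam encodes the alpha subunit of Mac-1 (CD11b), the integrin on which the cells were selected. It is ENSMUSG00000030786 on chromosome 7 from 128062640 to 128118491 on the plus strand. Itgam was at 435, 415, 379 and 439.8 CPM in the WT and at 486, 542, 434 and 433 CPM in the Cxcr2-/- mice. Cxcr2-/- replicates 1 and 2 were above all WT mice, and replicates 3 and 4 were within the WT range. The change of Itgam was 0.18 ± 0.10 on the log2 scale (SE, adjusted p = 0.173), which did not pass. The overlapping gene model Gm49368 was far lower, from 5.08 to 8.60 CPM in WT and from 3.33 to 4.25 CPM in Cxcr2-/- mice (log2 fold change -0.97, adjusted p = 0.00104).

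The genes of CD11b and CD11c are neighbours that changed unequally, and the bases before their start are shown for that reason. From the RefSeq promoter table (GRCm38.p6), which covers 6 of the 10 genes (no entry for Itgal, Itgb2, Itga6 and Itgb3), the 250 bases before the annotated start were searched on both strands for 3 short motifs, each given with its reverse complement. These were the core GAGGAA, or TTCCTC on the other strand, bound by PU.1, a master factor of myeloid genes, the core TGTGGT, or ACCACA, of Runx factors, and the box GGGCGG, or CCGCCC, of Sp1, and no match below overlaps another. Matches are in capitals, and positions count bases back from the start.
Itgam, chr7:128062390-128062639, plus strand: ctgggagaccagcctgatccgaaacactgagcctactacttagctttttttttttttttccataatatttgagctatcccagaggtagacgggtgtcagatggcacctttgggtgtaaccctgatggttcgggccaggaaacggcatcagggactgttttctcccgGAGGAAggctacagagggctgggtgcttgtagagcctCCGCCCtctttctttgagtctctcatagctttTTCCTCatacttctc
Itgax, chr7:128129300-128129549, plus strand: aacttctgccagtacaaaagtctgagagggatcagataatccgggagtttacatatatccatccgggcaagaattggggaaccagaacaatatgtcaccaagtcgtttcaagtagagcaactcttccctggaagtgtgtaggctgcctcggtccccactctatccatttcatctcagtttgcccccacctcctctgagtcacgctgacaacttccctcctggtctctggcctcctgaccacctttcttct
Itgam holds GAGGAA from -84 to -79, TTCCTC from -15 to -10 and CCGCCC from -47 to -42, whereas none of the 3 motifs is in the Itgax window. Of 32536 promoters of the same length, 23.4% hold the PU.1 letters, 14.0% the Runx letters and 33% the Sp1 letters, so such matches are common. Only exact letters within 250 bases were searched, so a window without a match may still hold a site. The part of the motifs in the changes, here and for the windows below, was not tested.

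Itgam ends 11.1 kb before Itgax starts, and Itgax ends 3.72 kb before Itgad, the alphaD subunit that also pairs with beta2. Itgal lies 728 kb upstream of Itgam on the same strand. Itgad is no member of the 10 but fell alongside Itgax, from a mean of 40.4 ± 6.60 CPM to 10.4 ± 1.34 CPM (log2 change -1.95 ± 0.14 SE, adjusted p = 4.57e-07). Among the 13 other tested genes between 100 kb upstream of Itgam and 100 kb downstream of Itgad, 6 were lower and 2, Pycard and Armc5, were higher in Cxcr2-/- neutrophils (log2 fold changes 0.40 and 0.64). Over all genes tested, 21.0% were lower and 23.7% higher. The lower ones included Gm49368, which shares exons with Itgam, and Gm5738, at means of 0.588 CPM in WT and 0.306 CPM in Cxcr2-/- mice. Of the lower ones, 4931431B13Rik (log2 fold change -2.55) and Gm44850 (-3.51), at about 1 CPM or less, lie inside the span of Itgad on the opposite strand, and the strand setting of the counting is not given in the sources used here.

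**Figure D2:**
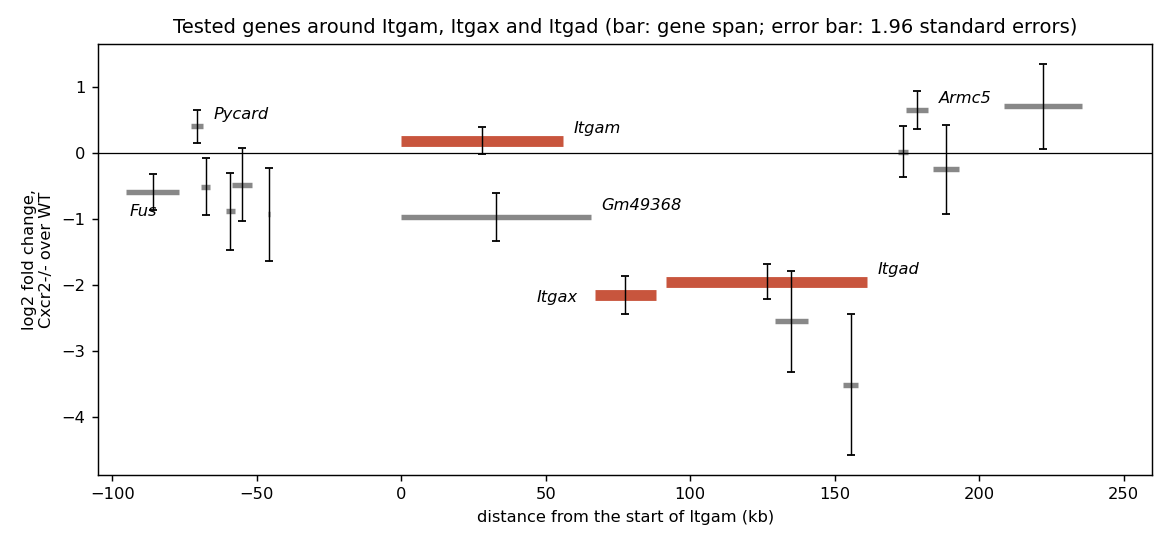
Log2 fold change (Cxcr2-/- over WT) of the tested genes around Itgam, Itgax and Itgad, plotted against distance in kb from the start of Itgam, with integrin genes in red, horizontal bars for the gene span and error bars of 1.96 standard errors. Itgax at -2.15 and Itgad at -1.95 lie well below Itgam at 0.18, which starts the same gene cluster.

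Within a library, the level of an alpha subunit can be set against its beta partner, which needs no scaling between libraries. The ratio of Itgal to Itgb2 per length was 0.495 ± 0.0423 in WT and 0.214 ± 0.0192 in Cxcr2-/- neutrophils, with no overlap, a log2 difference of -1.21. The ratio of Itgax to Itgb2 was 0.206 ± 0.0419 in WT and 0.0400 ± 0.0116 in Cxcr2-/- neutrophils, without overlap as well, a log2 difference of -2.39. The ratio of Itgam to Itgb2, in contrast, was 0.139 ± 0.00994 and 0.134 ± 0.0139, with a log2 difference of -0.06 (exact permutation test, two-sided, p = 0.629, adjusted over 8 ratios 0.718). The height of this ratio depends on the length used for Itgam, while its log2 difference does not. Per length of the unshared exon bases, Itgam was at 265 RPKM in WT and 301 RPKM in Cxcr2-/- mice, beside Itgb2 at 598 and 711 RPKM. For the ratios of Itgal and Itgax the exact permutation test, two-sided, gave p = 0.0286, the smallest that 4 mice against 4 allow. After Benjamini-Hochberg adjustment over 8 ratios this became 0.0571, so that no ratio passed. That value is set by the limit on p and by how many ratios reached it, not by the size of the differences.

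**Figure D3:**
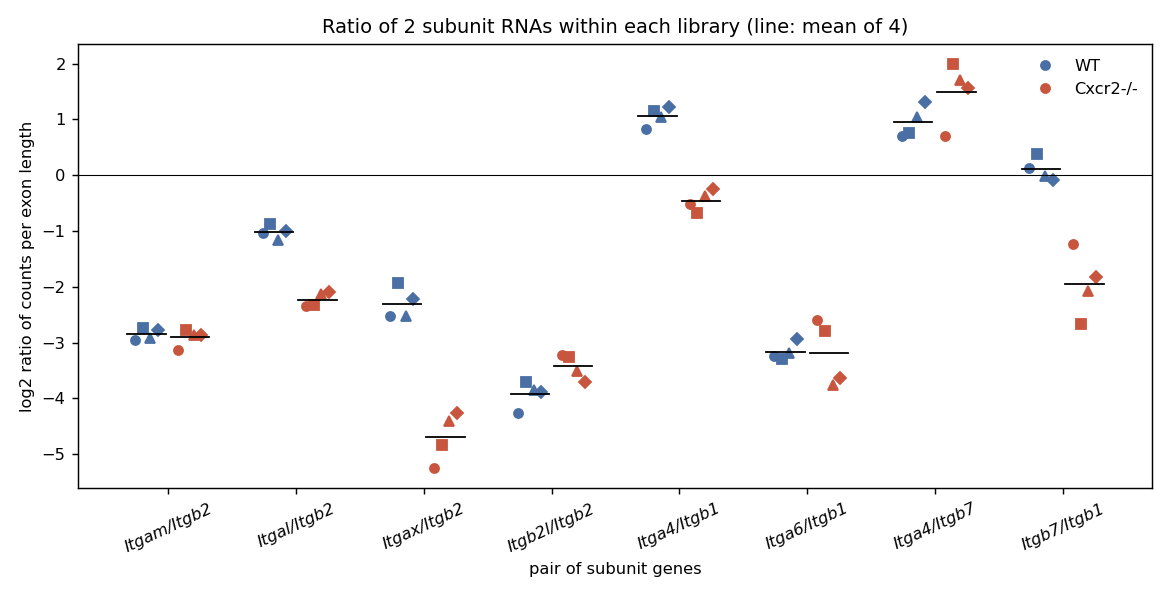
Log2 ratio of the counts per length of 2 integrin subunits within each library, 1 point per mouse with the mean of each group, for WT and Cxcr2-/- neutrophils. Itgal/Itgb2, Itgax/Itgb2, Itga4/Itgb1 and Itgb7/Itgb1 are lower in all Cxcr2-/- mice than in all WT mice, and the points of the other 4 ratios overlap or touch. The height of a ratio depends on the length used, which for Itgam includes exon bases shared with Gm49368.

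Itgb2l encodes a beta2-like subunit, a paralog of beta2 that is expressed in the neutrophil lineage. It is ENSMUSG00000000157 on chromosome 16 from 96422288 to 96443619 on the minus strand. The WT mice were at 149.9, 182, 170.3 and 177 CPM and the Cxcr2-/- mice at 393, 333, 238 and 209 CPM. All Cxcr2-/- mice were above all WT mice, with replicates 1 and 2 higher than replicates 3 and 4, so that the SD was 85.0 CPM among them against 14.2 CPM in WT. In log2 units Itgb2l changed by 0.79 ± 0.17 (SE, adjusted p = 0.00253), or 1.73-fold higher in Cxcr2-/- neutrophils. Of the counts per length on Itgb2 and Itgb2l together, Itgb2l made up 6.22 ± 0.922% in WT and 8.58 ± 1.20% in Cxcr2-/- mice. These shares depend on the length used and are larger per length of the longest transcript. By that length Itgb2l was at 60.6 and 104 RPKM in WT and Cxcr2-/- mice, beside Itgb2 at 614 and 731 RPKM. The ratio of Itgb2l to Itgb2 overlapped between the groups (0.0519 to 0.0767 in WT, 0.0767 to 0.107 in Cxcr2-/-), with a log2 difference of 0.50 (exact permutation test, two-sided, p = 0.0571, adjusted over 8 ratios 0.0914). How reads shared by these paralogs were counted was not tested.
The window before the start of Itgb2l is shown because this is the only subunit of the 10 that passed as higher, with the motifs in capitals.
Itgb2l, chr16:96443615-96443864, minus strand: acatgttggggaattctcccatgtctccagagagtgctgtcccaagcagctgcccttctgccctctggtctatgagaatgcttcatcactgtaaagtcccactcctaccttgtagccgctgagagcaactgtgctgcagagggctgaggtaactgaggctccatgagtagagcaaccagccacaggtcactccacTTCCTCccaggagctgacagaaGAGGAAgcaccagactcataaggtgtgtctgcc
It holds TTCCTC from -55 to -50 and GAGGAA from -33 to -28, and neither of the other 2 motifs. Genes of a list of neutrophil granule genes, of more than 1 granule type, moved in the same direction as Itgb2l. All 10, Camp, Ltf and Mpo among them, were higher in Cxcr2-/- neutrophils, with a median log2 fold change of 2.16. These genes did not follow Itgb2l alike across the Cxcr2-/- mice. Their sum, mostly Ltf, Ngp, Lcn2 and Camp, was highest in replicate 1 (73788 CPM) and lowest of that group in replicate 4 (51399 CPM), as for Itgb2l. The azurophil granule genes Mpo, Elane, Prtn3 and Ctsg, and Ms4a3, were at lower levels and highest in replicate 4, where Mpo was at 19.1, 20.2, 81.2 and 146 CPM in the 4 mice. Their part in the change of Itgb2l was not tested.

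Itga4 encodes the alpha4 subunit (CD49d), which binds VCAM-1 and fibronectin. It is ENSMUSG00000027009 on chromosome 2 from 79255426 to 79333123 on the plus strand. The WT mice were at 482, 559, 490.1 and 572 CPM and the Cxcr2-/- mice at 161, 166, 225 and 266 CPM. All Cxcr2-/- mice were below all WT mice, replicates 1 and 2 most. For Itga4 the log2 change was -1.36 ± 0.16 (SE, adjusted p = 2.14e-05), or 2.57-fold lower in Cxcr2-/- neutrophils. Cerkl, on the opposite strand, shares 8.04% of the Itga4 exon bases and was at 2.05 CPM or less in every library.
Itgb7 encodes the beta7 subunit, which pairs with alpha4 and, in intestinal T cells, with alphaE. It is ENSMUSG00000001281 on chromosome 15 from 102215995 to 102231944 on the minus strand. Its RNA was at 58.7, 65.6, 47.0 and 45.7 CPM in the WT and at 19.5, 8.27, 13.7 and 17.7 CPM in the Cxcr2-/- mice, without overlap. The log2 change of Itgb7 was -1.87 ± 0.22 (SE, adjusted p = 2.60e-05), or 3.67-fold lower in Cxcr2-/- neutrophils. Beta7 integrins are also made by lymphocytes. B cell markers fell with Itgb7: the sum of 7 was from 65.4 to 148 CPM in WT and from 29.1 to 65.8 CPM in Cxcr2-/- mice, and 6 of the 7 were lower in Cxcr2-/- mice, of which only Ighm passed with every library left out in turn. Their part in the change of Itgb7 was not tested. T and NK cell markers summed to between 84.9 and 114 CPM in WT and between 90.1 and 138 CPM in Cxcr2-/- mice, nearly all from Cd3d, while Cd3e and Trac were at 0.563 CPM or less in every library. Markers of eosinophils, basophils and mast cells summed to between 39.2 and 56.5 CPM in WT and between 35.2 and 57.3 CPM in Cxcr2-/- mice, but the 3 of the 8 that were tested moved in opposite directions. Siglecf was at 37.7 to 55.4 CPM in WT and 28.7 to 35.2 CPM in Cxcr2-/- mice (log2 fold change -0.57, adjusted p = 0.00321), lower without overlap as Itgb7 was. The eosinophil granule genes Epx (0.0884 to 0.882 CPM in WT, 0.609 to 5.10 CPM in Cxcr2-/-, log2 fold change 2.78, adjusted p = 0.00812) and Prg2 (log2 fold change 2.87, adjusted p = 0.0120) were higher. The part of such cells in the change of Itgb7 was not tested either.

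Itgb1 encodes the beta1 subunit (CD29), the partner of alpha4 and alpha6. It is ENSMUSG00000025809 on chromosome 8 from 128685654 to 128733200. It was at 78.9, 73.9, 69.6 and 71.7 CPM in the WT mice and at 67.5, 77.5, 85.3 and 92.8 CPM in the Cxcr2-/- mice. The groups overlapped and the log2 change was 0.14 ± 0.10 (SE, adjusted p = 0.306). The ratio of Itga4 to Itgb1 per length was 2.10 ± 0.236 in WT and 0.733 ± 0.0921 in Cxcr2-/- neutrophils, a log2 difference of -1.52 without overlap. In WT neutrophils, therefore, alpha4 RNA exceeded beta1 RNA per length in every mouse (lowest ratio 1.78), and in Cxcr2-/- neutrophils it was below it in every mouse (highest ratio 0.838). That last order depends on the length used: per length of the longest transcript, Itga4 at 21.0 and Itgb1 at 21.2 RPKM overlapped in Cxcr2-/- mice, while the log2 difference between genotypes does not depend on it. The ratio of Itgb7 to Itgb1 was 1.08 ± 0.163 and 0.275 ± 0.112, a log2 difference of -2.06 without overlap. Each of these 2 ratios gave p = 0.0286, the limit given above, in the exact permutation test, two-sided, and 0.0571 after adjustment over 8 ratios. The ratio of Itga4 to Itgb7 overlapped between the groups, at 1.97 ± 0.394 in WT and 2.96 ± 0.979 in Cxcr2-/- mice (log2 difference 0.54, exact permutation test, two-sided, p = 0.143, adjusted 0.190).
The windows before the starts of Itga4 and Itgb7 are shown because these partners fell together.
Itga4, chr2:79255176-79255425, plus strand: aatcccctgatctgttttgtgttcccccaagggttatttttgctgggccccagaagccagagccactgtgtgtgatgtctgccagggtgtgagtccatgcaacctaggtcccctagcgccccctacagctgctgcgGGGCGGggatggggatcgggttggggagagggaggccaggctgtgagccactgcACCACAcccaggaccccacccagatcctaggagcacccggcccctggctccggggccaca
Itgb7, chr15:102231936-102232185, minus strand: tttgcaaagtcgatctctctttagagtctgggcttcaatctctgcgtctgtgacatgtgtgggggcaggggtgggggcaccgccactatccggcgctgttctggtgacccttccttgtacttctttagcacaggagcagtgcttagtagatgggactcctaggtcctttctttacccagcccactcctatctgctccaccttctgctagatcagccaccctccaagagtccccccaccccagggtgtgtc
Itga4 holds ACCACA from -60 to -55 and GGGCGG from -114 to -109, and Itgb7 holds none of the 3 motifs. The 2 windows share no motif of the 3. Itgb1, which did not pass, holds GAGGAA from -9 to -4 and GGGCGG from -151 to -146.

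Itga6 encodes the alpha6 subunit, a laminin receptor with beta1, and is ENSMUSG00000027111 on chromosome 2 from 71745616 to 71858416. Itga6 was at 18.3, 16.6, 16.8 and 20.8 CPM in the WT and at 24.8, 24.7, 13.9 and 16.5 CPM in the Cxcr2-/- mice. Cxcr2-/- replicates 1 and 2 were above all WT mice and replicates 3 and 4 were below all of them, so that the groups had like means and the log2 change was 0.14 ± 0.18 (SE, adjusted p = 0.553). With a covariate for the markers of non-neutrophil cells it was -0.16 (adjusted p = 0.389). The ratio of Itga6 to Itgb1 was 0.112 ± 0.0134 in WT and 0.116 ± 0.0462 in Cxcr2-/- mice (exact permutation test, two-sided, p = 0.914, also after adjustment over 8 ratios).
Itgb3 encodes the beta3 subunit, which pairs with alphaIIb on platelets and with alphaV on other cells, and is ENSMUSG00000020689 on chromosome 11 from 104608000 to 104670476. The WT mice were at 76.3, 67.2, 59.5 and 67.6 CPM and the Cxcr2-/- mice at 68.1, 64.4, 39.2 and 47.0 CPM. Cxcr2-/- replicates 3 and 4 were below all WT mice and replicates 1 and 2 within the WT range. The log2 change of Itgb3 was -0.31 ± 0.16 (SE, adjusted p = 0.131), which did not pass. Itgb3 was the 1 gene of the 10 whose call depended on the settings: it passed without Cxcr2-/- replicate 1 (log2 fold change -0.42, adjusted p = 0.0391) and with 4 other settings. Platelet and megakaryocyte markers moved in the direction of Itgb3 at a lower level: the sum of 9 was from 16.1 to 21.8 CPM in WT and from 10.4 to 15.8 CPM in Cxcr2-/- mice, mostly Gp1ba, and 3 of the 4 tested, Gp1ba, Itga2b and Tubb1, were lower, with a median log2 fold change of -0.62. Of the defining markers, Pf4 and Ppbp were at 0.152 CPM or less in every library, and Itga2b averaged 4.58 ± 0.801 CPM (WT) and 3.09 ± 0.691 CPM (Cxcr2-/-). The part of platelets in the level of Itgb3 was not tested. Itgav, the other partner, averaged 52.1 ± 0.646 CPM (WT) and 47.0 ± 1.79 CPM (Cxcr2-/-) (log2 fold change -0.15, adjusted p = 0.134).

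**Figure D4:**
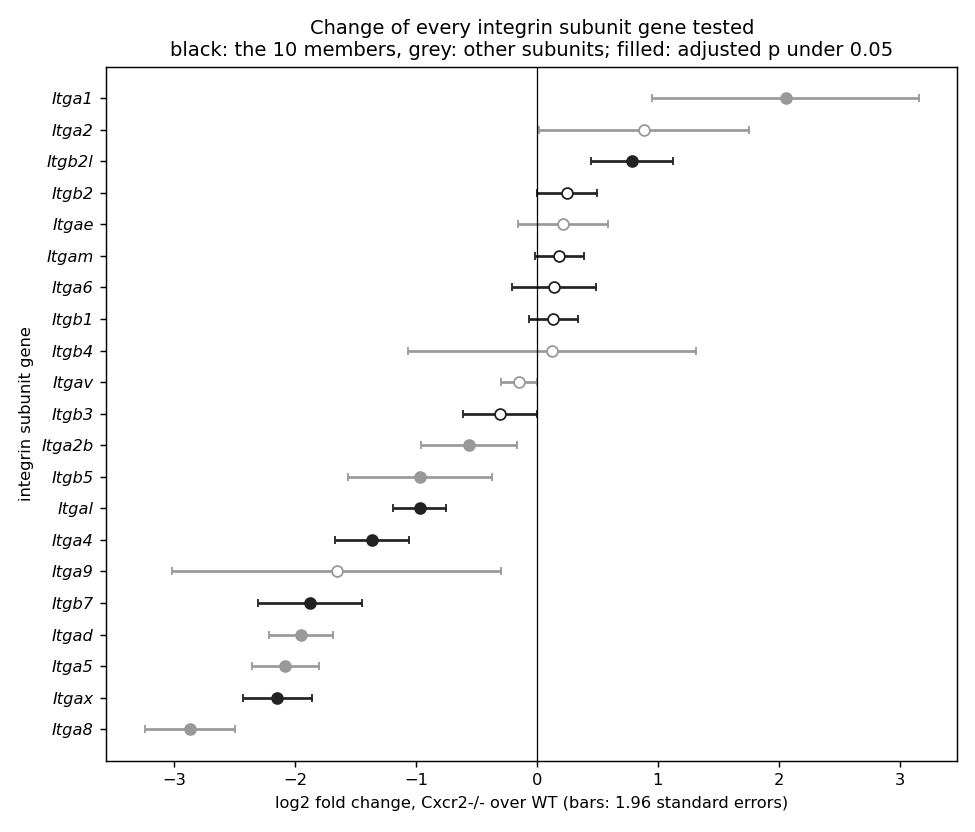
Log2 fold change (Cxcr2-/- over WT) of the 10 integrin subunit genes (black) and the 11 other subunit genes tested (grey), ordered by change, with bars of 1.96 standard errors and filled points for an adjusted p under 0.05. Of the 10, Itgax, Itgb7, Itga4 and Itgal lie below 0 and Itgb2l above it with filled points, from -2.15 for Itgax to 0.79 for Itgb2l. The bars of Itgb2 and Itgb3 miss 0, but neither gene passed.

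Cxcr2-/- replicates 1 and 2 differed from replicates 3 and 4 in several of these genes: they were higher for Itgb2, Itgam, Itgb2l, Itga6 and Itgb3 and lower for Itgax, Itga4 and Itgb1. The mean log2 level of 37 markers of non-neutrophil cells split these mice in the same way, at 2.31 and 2.05 in replicates 1 and 2 and 2.69 and 2.86 in replicates 3 and 4, against 2.43 to 2.98 in the WT mice. With that mean as a covariate, Itgal was at a log2 fold change of -1.0 (adjusted p = 4.23e-05), Itgax at -2.06 (adjusted p = 3.39e-07), Itga4 at -1.23 (adjusted p = 1.84e-05), Itgb7 at -1.64 (adjusted p = 3.97e-05) and Itgb2l at 0.52 (adjusted p = 0.0167). All 5 genes that passed thus passed with the covariate too, and of these Itgb2l moved most. The covariate pools markers of several cell types that moved in opposite directions (B cell median log2 fold change -1.18, Epx 2.78). It therefore cannot adjust for the RNA of any 1 cell type. Whether the other cells account for the split between the mice was not tested.

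Of the 17 other integrin subunit genes, 11 passed the filter on low counts. Of these 11, 5 (45.5%) were lower, 1 (9.09%) was higher and 5 did not pass, with a median log2 fold change of -0.56. Over all genes tested, 21.0% were lower and 23.7% higher. Of the 5 lower ones, 4 were alpha subunits. Itga5, the fibronectin receptor subunit that pairs with beta1, fell from 56.5 ± 10.8 to 13.4 ± 1.22 CPM (log2 fold change -2.08, adjusted p = 3.92e-07). Itga8, another partner of beta1, fell from 12.9 ± 1.34 to 1.76 ± 0.447 CPM (log2 fold change -2.87, adjusted p = 3.41e-07). Itgad was given above. Itgb5, a partner of alphaV, was at 10.4 ± 1.83 and 5.33 ± 2.68 CPM (log2 fold change -0.97, adjusted p = 0.0204), and Itga2b at a log2 fold change of -0.56 (adjusted p = 0.0388). Itgb5 did not pass without WT replicate 4 (adjusted p = 0.0584) or Cxcr2-/- replicate 2 (adjusted p = 0.0571), and Itga2b did not pass without WT replicate 3 or 4 or Cxcr2-/- replicate 2, 3 or 4 (adjusted p from 0.0643 to 0.104) or with the replicate block (adjusted p = 0.0561). Itga1, a collagen receptor subunit, was higher but near the limit of detection, at 0.316 ± 0.128 and 1.34 ± 1.07 CPM with overlapping groups (log2 fold change 2.06, adjusted p = 0.00992). Itgae, Itga2, Itga9, Itgb4 and Itgav did not pass, with log2 fold changes of 0.22, 0.89, -1.66, 0.12 and -0.15. The alpha partners of beta1 that fell, Itga4, Itga5 and Itga8, thus fell where Itgb1 itself did not pass, whereas Itga6, another of its partners, did not pass either.

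Of 17 genes listed as activators, which switch integrins on from inside the cell, 15 were tested. Of these, 4 (26.7%) were lower, 1 (6.67%) was higher and 10 did not pass (median log2 fold change 0.00). Over all genes tested, 21.0% were lower and 23.7% higher, and these shares stand beside the counts of each list below. Fermt3, the kindlin of blood cells that binds beta tails, rose by 0.47 on the log2 scale (259.7 ± 15.3 to 359 ± 41.8 CPM, adjusted p = 0.00259). Tln1, the talin that unlocks the beta subunit, was at 1881 ± 248 and 2478 ± 582 CPM and did not pass (adjusted p = 0.0662). Cytip, the lower gene with the strongest change, encodes a cytohesin-binding protein that dampens beta2 adhesion in other leukocytes (log2 fold change -0.88, adjusted p = 1.33e-05), so that it is no activator by this role although it stands in the list. The other 3 lower genes were the adaptor Fyb (-0.71, adjusted p = 6.52e-05), Apbb1ip, which encodes the Rap1 effector RIAM (-0.54, adjusted p = 4.22e-04), and the small GTPase Rap1b (-0.44, adjusted p = 0.00398). Of 9 inhibitors 8 were tested, 2 were higher, 1 was lower and 5 did not pass. Flna, a filamin that competes with talin for the beta tail, rose from 3454 ± 387 to 6156 ± 1388 CPM (log2 fold change 0.83, adjusted p = 0.00122), and Itgb1bp1 was higher by 0.35 on the log2 scale (adjusted p = 0.0209), but did not pass without WT replicate 2 (adjusted p = 0.0824) or 3 (adjusted p = 0.0538), with upper-quartile normalization (adjusted p = 0.107) or with the covariate (adjusted p = 0.0820). Rasa3, which turns off Rap1, was lower (501 ± 62.0 to 219 ± 8.42 CPM, log2 fold change -1.19, adjusted p = 2.81e-06).

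Of 16 genes whose products link integrins to actin, 14 were tested. Of these, 6 (42.9%) were higher, 2 (14.3%) were lower and 6 did not pass, with a median log2 fold change of 0.20. The largest rises were those of the parvin Parvg (138 ± 10.8 to 258 ± 32.7 CPM, log2 fold change 0.90, adjusted p = 3.15e-05), of vinculin, Vcl (0.69, adjusted p = 7.86e-04), and of the actin regulator Vasp (0.61, adjusted p = 0.00159). Ptk2b, the Pyk2 kinase of blood cells, changed by -0.44 on the log2 scale (adjusted p = 0.00915). Ptk2, the focal adhesion kinase, was at 2.02 ± 1.67 and 0.579 ± 0.134 CPM (-1.81 on the log2 scale, adjusted p = 0.0155), but did not pass without WT replicate 2 (adjusted p = 0.0698), with the replicate block (adjusted p = 0.0623) or with the covariate, where its log2 fold change was -0.91 (adjusted p = 0.239). Of 15 genes that signal from ligand-bound beta2 integrins, all were tested, 2 were higher, 3 were lower and 10 did not pass. Among the higher ones was the ITAM adaptor Fcer1g (log2 fold change 0.38, adjusted p = 0.0166). Pik3cd (-0.53, adjusted p = 0.00461), Lcp2, the adaptor SLP-76 (-0.38, adjusted p = 0.00424), and the kinase Syk (-0.32, adjusted p = 0.0185) were lower. Fcer1g did not pass without WT replicate 2 (adjusted p = 0.0632) or Cxcr2-/- replicate 3 (adjusted p = 0.0664) or with upper-quartile normalization (adjusted p = 0.0767), nor Syk without WT replicate 4 (adjusted p = 0.0648) or Cxcr2-/- replicate 2 (adjusted p = 0.0601).

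Of 18 genes of integrin ligands 11 were tested, 3 (27.3%) were higher, 3 (27.3%) were lower and 5 did not pass. Icam1, the ligand of LFA-1 and Mac-1, fell from 38.5 ± 6.36 to 13.9 ± 3.03 CPM (log2 fold change -1.47, adjusted p = 2.05e-05), and Icam2, another LFA-1 ligand, fell from 6.42 ± 0.725 to 4.40 ± 0.319 CPM (-0.54, adjusted p = 0.0104). Spp1, osteopontin, a ligand of alpha4 and beta3 integrins, changed by -1.01 on the log2 scale (adjusted p = 6.14e-04). C3, whose fragments bind Mac-1 and p150,95, rose from 1128 ± 118 to 2020 ± 402 CPM (0.84, adjusted p = 5.13e-04). Fn1, fibronectin, was at 24.0 ± 6.51 and 82.6 ± 61.8 CPM with overlapping groups (1.78, adjusted p = 0.00831), and F11r, the junctional molecule JAM-A, at 1.06 ± 0.178 and 1.92 ± 0.726 CPM (0.87, adjusted p = 0.0256). F11r did not pass without WT replicate 1, 2 or 3 or Cxcr2-/- replicate 3 (adjusted p from 0.0577 to 0.118).

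**Figure D5:**
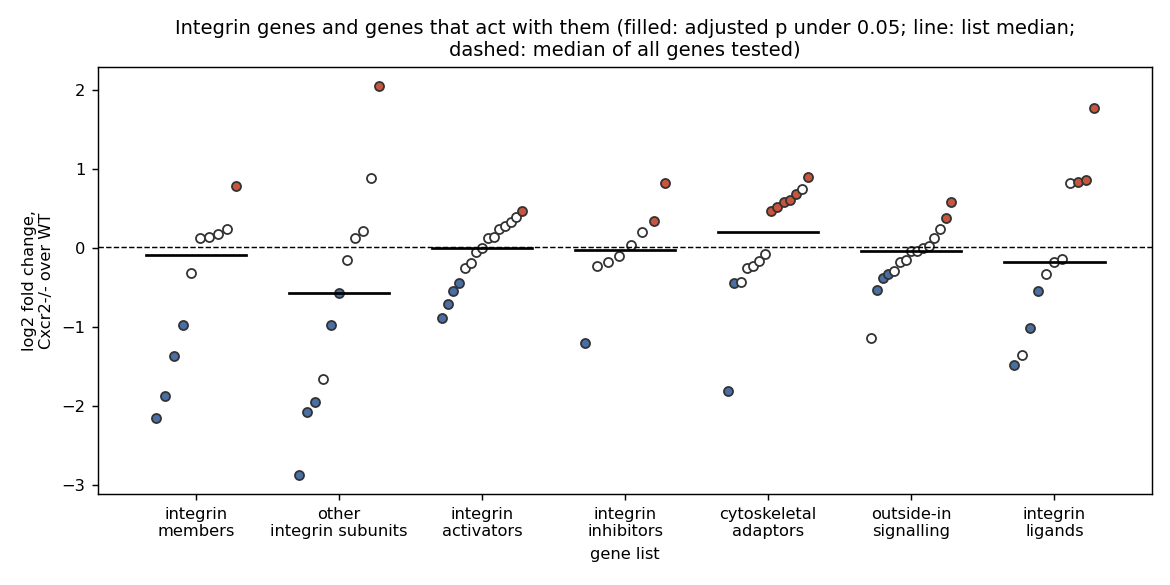
Log2 fold change (Cxcr2-/- over WT) of every tested gene in the lists of integrin subunits, activators, inhibitors, cytoskeletal adaptors, outside-in signalling genes and ligands, with 1 point per gene, marked by whether it passed an adjusted p of 0.05, and the median of each list. Genes on both sides of 0 passed in every list, and the list medians run from -0.56 for the other integrin subunits to 0.20 for the cytoskeletal adaptors.

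The genes whose level followed that of a subunit most closely over the 8 libraries were sought among the 7502 genes whose log2 CPM averaged 3 or more. These values are descriptions, since all 8 libraries share the contrast of genotype. For Itgax they were Peak1, Itgad and Fem1c, with Pearson r of 0.999, 0.998 and 0.997, so that its nearest integrin gene in position was also among those most like it in level. For Itgal they included Adgre5 and Fgl2 (r of 0.994 for each), and for Itga4 they were Cd244a, Maml3 and Bcl2l11 (r of 0.997, 0.996 and 0.996). For Itgb7 they were Themis2, Cnpy3 and Csrnp1 (r of 0.983, 0.982 and 0.981), and for Itgb2l Bcorl1, Opa3 and Kif13b (r of 0.997, 0.996 and 0.989). No other member was among the 3 genes most like any of the 10.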

How the data were processed

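RNAseq of sorted spleen neutrophils from 4 WT and 4 Cxcr2-/- mice was analysed, 1 library per mouse. Directional libraries of RNA without ribosomal RNA were sequenced from both ends. Trimmed reads were aligned with STAR (mm10), and HTSeq was used by the authors for the counts per gene. They deposited whole-number counts per gene without normalization, and these counts were used as deposited. The annotation version and the strand setting of the counting are not given in the sources used here, so overlapping and antisense genes are uncertain. Groups and replicate numbers were taken from the sample labels. Replicates were compared before averaging, and none were alike within sampling noise. The labels do not tie same-numbered mice to each other.

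Genes were tested in R 4.3.3 with edgeR 4.0.16 (quasi-likelihood test, TMM, filterByExpr, Benjamini-Hochberg adjustment over 16778 genes), with genotype as the only term and a threshold of 0.05. CPM use the TMM-normalized library size. Mice of 1 group varied with a biological coefficient of variation of 0.202. When counts were simulated for the 16778 genes of the comparison with 200 of them altered, these steps found 74% of the 2-fold and 99% of the 4-fold changes, beside 11 false calls. In the data 44.7% of the genes passed, a far larger share, and the adjusted p depends on that share. The values therefore do not give the sensitivity or the number of false calls in the data. Ratios of subunits within a library were tested with an exact permutation test. GENCODE M21 (GRCm38) names 52081 of the identifiers, matched without version, and lacks 3333. Of those named, 52046 carry another version number than in M21, so the exons behind lengths and overlaps may differ from those counted. Promoter bases came from RefSeq (GRCm38.p6), and protein sequences were not used here.

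Alternatives were DESeq2 1.42.0, RLE, upper-quartile and total-count scaling, 2 other filters (none, or 10 counts or more in each library), a replicate block, a covariate for markers of non-neutrophil cells, each library left out in turn, 1 count added before a ratio, and other lengths, of which the length of unshared exon bases was chosen after the data were seen. The named genes are the 10 subunits, every other integrin subunit tested, the 3 largest rises and falls that passed in each other list, the 3 genes most like a subunit, and genes whose absence is stated. Tln1, Rap1b, Gm49368, Cerkl, the chromosome 7 neighbours and single cell type markers were named after their values were seen. Some genes that fall under this rule are not reported here. The subunits and lists were chosen with earlier results of these data known.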

Additional observations from a re-analysis of the deposited data

How the results depend on the processing

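Over 16 alternatives per gene, 154 of 160 fold changes of the 10 subunit genes kept their direction and their side of the threshold, and Itgal, Itgax, Itga4, Itgb7 and Itgb2l passed in all of them. Itga6, which never passed, changed sign with the covariate for non-neutrophil cells (-0.16, adjusted p = 0.389). Itgb3 passed, lower in Cxcr2-/-, with upper-quartile normalization (log2 fold change -0.43, adjusted p = 0.0379), total counts (-0.41, adjusted p = 0.0330), the replicate block (-0.34, adjusted p = 0.0348) and the covariate (-0.51, adjusted p = 0.0170). With each library left out in turn, Itgb3 ran from -0.42 to -0.19 and passed without Cxcr2-/- replicate 1 alone. The cause was not tested. The number of subunits lower in Cxcr2-/- was thus 4 or 5, and 1 was higher throughout.

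Upper-quartile normalization moved the median of all genes by -0.12 on the log2 scale, so that 41.2% of the calls over all genes were higher in Cxcr2-/- against 53.0% with TMM. Over the integrin pathway lists it gave 13 genes higher and 25 lower, against 15 and 18 with TMM. Same-numbered mice gave a mixed picture over 7734 genes. Their deviations had r of 0.19 and 0.36 for replicates 1 and 3, and of -0.09 and -0.28 for replicates 2 and 4. Not every mouse correlated best with its own number. The replicate block moved the subunits lower from 4 to 5 and changed no other call of the 10. For the subunit ratios, the exact sign-flip test within numbers cannot go below p = 0.125, and the exact permutation test without 1 mouse cannot give less than p = 0.0571, so these say nothing about stability. The log2 differences of the Itgam to Itgb2 and Itga6 to Itgb1 ratios crossed 0 when 1 mouse was left out (-0.11 to 0.01 and -0.23 to 0.16). Per-length levels moved by more than 1 SD in 14 of 40 comparisons with another length. The lowest count of any of the 10 subunits in a library was 299, for Itgb7, and for the 6 other subunit genes that did not pass the filter no change was detectable at this depth, which does not tell a low level from none. In simulated counts 2-fold changes were found less often (74%) than 4-fold ones (99%), and smaller ones such as that of Itgb2 were not simulated. Far fewer genes changed in the simulated counts than passed in the data, so these shares do not carry over to the data.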
